A study of Homo sapiens with 3 samples.

Results

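The transgelin gene TAGLN and 9 genes linked to the actin cytoskeleton and to serum response factor were followed across 3 arrays: ACTA2, TPM1, TPM2, CNN2, CNN3, MYL9, ACTN1, AHNAK and SRF. A probe set was taken where the platform annotation paired it with 1 of these symbols alone, which gave 32 probe sets for 10 genes of 19775 genes in all. The symbols had been picked with earlier ratios from these same arrays known, so every ratio below is a description and carries no test. The arrays held human colorectal cancer cells infected with a virus for full-length LATS2 (LATS2), with a virus for residues 1 to 625 of LATS2 (LATS2N), or with an empty-vector control virus (EV). There was 1 array per group, so no replicate spread exists for any value. The sample labels name the line SW620, whereas the series' design text names SW480 and describes stable expression. Cells of all 3 groups were grown in DMEM with 10% FBS, and biotinylated cRNA was made from 6 ug of total RNA. The labels give no promoter, clone or pool for the constructs.

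LATS2 is a protein kinase of Hippo signalling, and its kinase domain lies toward the C-terminus, beyond the LATS2N fragment. SRF is a transcription factor that binds the CArG box, a DNA element in the promoters of many actin and smooth muscle genes. Its coactivators MRTFA and MRTFB bind monomeric actin and move to the nucleus when actin polymerises, so that actin state and actin gene transcription are coupled. Many of the genes studied here are contractile markers of smooth muscle, and epithelial cells carry some of them at lower levels.

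Each value is a probe set signal on a linear scale, scaled by the authors to a common array mean. Signals under a floor of 50.5, which is the median of all signals, were raised to it before log2 ratios were computed. The call used below is one of size: a floored difference of 2-fold or more, a log2 ratio of 1. A gene was represented by its brightest probe set, and a probe set is called usable in a comparison when it reached the floor on 1 of the arrays compared. Of the 32 probe sets, 20 were at or above the floor on all 3 arrays, 2 on some arrays, and 10 on none. The median signal was 49.4 on LATS2, 51.0 on LATS2N and 51.1 on EV. Of 12 colon epithelial markers, EPCAM, KRT8 and KRT18 read from 16608 for EPCAM on EV to 47247 for KRT18 on LATS2. Others of the list were dim: CLDN3 read from 219 to 271, CDX2 from 141 to 194 and KRT20 from 109 to 127. LGALS4 read from 27.7 to 55.9 and CDX1 from 28.2 to 55.0. CDH1 read 2792 on LATS2, 3567 on LATS2N and 4421 on EV. The targeted gene had 2 probe sets above the floor, which read 219, 219 and 206, and 377, 409 and 385, on the LATS2, LATS2N and EV arrays. Which part of the LATS2 transcript they read is not known here, so they do not check the labels. The ACTB signal at the 3-prime end over that at the 5-prime end was 1.74 on LATS2, 1.85 on LATS2N and 1.68 on EV. The 18S ribosomal RNA probe sets had a median log2 ratio of -1.31 for LATS2 against EV and -0.70 for LATS2N against EV. The part of these 2 measures in the ratios below was not tested.

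RefSeq promoter windows of build GRCh38.p14 were matched for 8 of the 10 genes, and TAGLN and MYL9 were not matched. The 250 bases before each start were searched for the CArG box, which is CC, then 6 bases of A or T, then GG, and which reads alike on both strands. An exact match stood in 3 of the 15 windows of the members, in 1.16% of all 35116 windows, and in 14.6% of the 89 windows of other actin and SRF target genes. The form with 1 G or C among the 6 middle bases, counted together with the exact form, stood in 4 of the 15 windows, and in 7.04% of all windows. In the windows of other actin and SRF target genes it stood in 27.0%. Both sets were chosen as genes linked to actin and SRF, so a share above that of all windows tests nothing. Several of the 8 genes have more than 1 window. The next 4 lines give the 250 bases, 5′ to 3′, before 1 start each of ACTA2, CNN2 and SRF, which had a match, and of AHNAK, which had none. Capitals mark the CArG box or its 1-base variant. ACTA2 lies at chr10:88952774-88953023 on the minus strand, CNN2 at chr19:1026358-1026607 on the plus strand, SRF at chr6:43171019-43171268 on the plus strand, and AHNAK at chr11:62545827-62546076 on the minus strand.
ACTA2: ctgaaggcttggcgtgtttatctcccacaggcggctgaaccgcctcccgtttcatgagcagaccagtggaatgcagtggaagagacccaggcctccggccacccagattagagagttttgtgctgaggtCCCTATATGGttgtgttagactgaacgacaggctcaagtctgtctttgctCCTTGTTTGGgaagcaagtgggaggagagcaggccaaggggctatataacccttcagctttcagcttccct
CNN2: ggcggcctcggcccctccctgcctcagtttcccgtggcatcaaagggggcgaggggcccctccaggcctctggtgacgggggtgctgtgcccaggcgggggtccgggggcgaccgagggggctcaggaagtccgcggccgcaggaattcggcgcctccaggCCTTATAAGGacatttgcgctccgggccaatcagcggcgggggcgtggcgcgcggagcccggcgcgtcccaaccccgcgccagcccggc
SRF: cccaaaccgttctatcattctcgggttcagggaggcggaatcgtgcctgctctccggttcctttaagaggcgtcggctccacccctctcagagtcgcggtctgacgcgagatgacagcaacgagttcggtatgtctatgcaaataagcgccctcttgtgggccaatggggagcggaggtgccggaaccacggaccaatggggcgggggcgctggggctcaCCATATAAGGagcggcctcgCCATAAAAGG
AHNAK: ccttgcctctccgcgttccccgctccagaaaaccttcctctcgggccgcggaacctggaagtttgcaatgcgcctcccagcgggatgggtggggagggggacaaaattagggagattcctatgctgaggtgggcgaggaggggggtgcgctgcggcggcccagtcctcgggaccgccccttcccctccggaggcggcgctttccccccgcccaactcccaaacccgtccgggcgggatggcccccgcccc
The SRF window shown holds 2 exact boxes, that of CNN2 holds 1, and that of ACTA2 holds 2 one-base variants and no exact box. SRF and ACTA2 each have another listed start, before which no match was found. The third gene with an exact box, ACTN1, has it before 1 of its 4 listed starts. No match was found before the starts of CNN3, TPM1, TPM2 or AHNAK. A match is a string in the sequence, and these arrays hold no measure of SRF binding.

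The 10 genes did not move together. Against EV, TAGLN and AHNAK were lower on the LATS2 array and CNN3 was lower by less than the call, ACTA2 was higher from below the floor, TPM2 was 1.32-fold higher, and CNN2, ACTN1, MYL9, TPM1 and SRF differed from EV by at most 1.23-fold. In that comparison 2 of the 10 genes were called lower, where 0.842% of 13186 genes were called lower, and 1 was called higher, where 0.963% were. On the LATS2N array none was called in either direction, where 0.566% of 13245 genes were called lower and 0.944% higher. On the LATS2 array against LATS2N, 1 was called lower, where 1.0% of 13175 genes were, and none higher, where 0.592% were. The members were picked with these ratios known, so the counts do not show that the group differs from other genes. The median log2 ratio of the 10 genes was -0.02 for LATS2 against EV, where that of all genes was 0.03. It was -0.05 for LATS2N against EV, where that of all genes was 0.02, and -0.21 for LATS2 against LATS2N, where that of all genes was 0.01. Both construct arrays were set against the same EV array. Since each array holds RNA from a whole culture, fewer cells with a transcript and less of it per cell cannot be told apart.

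**Figure D1:**
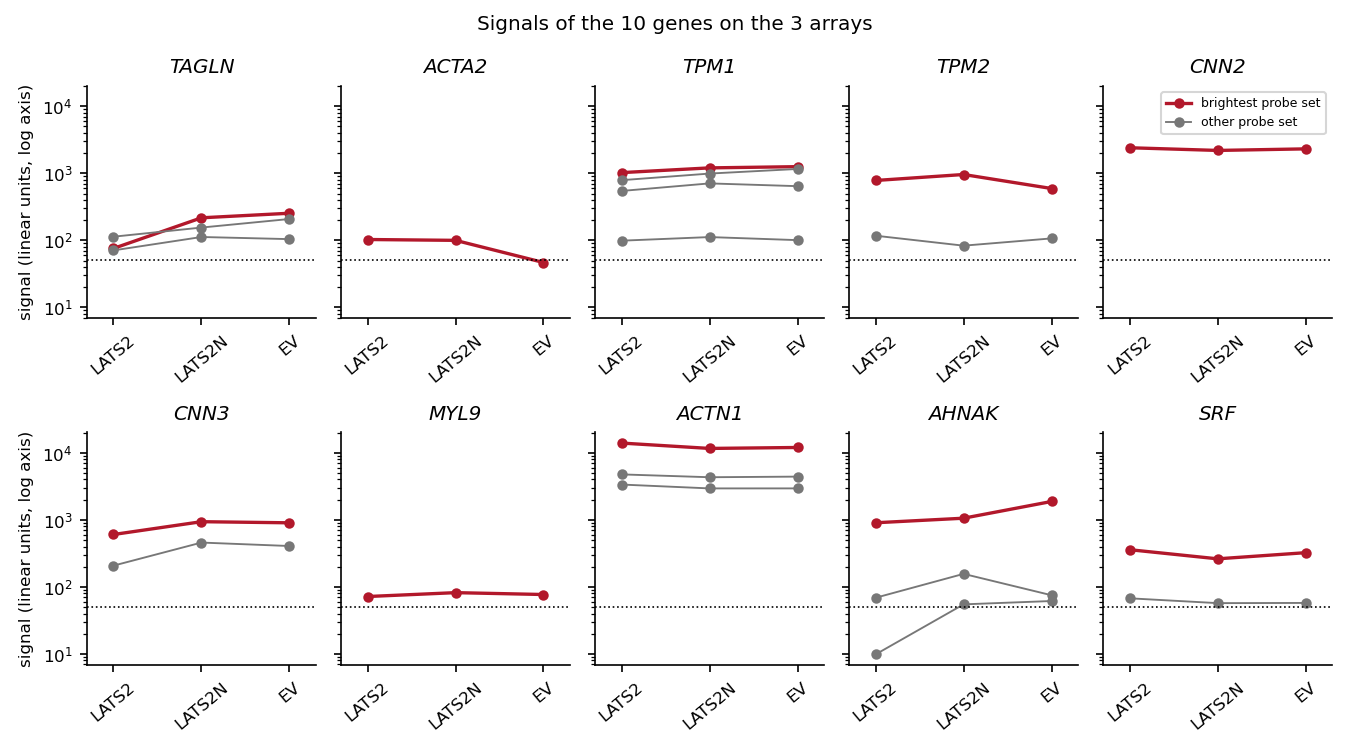
Signal of each probe set (linear units on a log axis) on the LATS2, LATS2N and EV arrays, for each of the 10 genes, with 1 array per group. Red marks the brightest probe set of a gene, grey the others that reached the floor of 50.5 (dotted line) on an array, and the lines only join the values of a probe set. TAGLN and CNN3 are lowest on LATS2 in every probe set drawn, and the brightest AHNAK probe set is highest on EV.

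TAGLN encodes transgelin, also called SM22 alpha, an actin-bundling protein of the calponin family and a classical SRF target. Its brightest probe set, 1555724_s_at, read 75.8 on LATS2, 217 on LATS2N and 254 on EV. The LATS2 array was the low one, 3.35-fold below EV and 2.86-fold below LATS2N. That log2 ratio against EV, -1.74, ranked 6 from the lowest among 13186 genes. Among the 5784 of them whose brighter signal was under 500, as that of TAGLN was, 1.45% were called lower. A second probe set, 205547_s_at, read 113 on LATS2, 155 on LATS2N and 208 on EV. It gave the same order of arrays with a smaller log2 ratio of -0.88 for LATS2 against EV. The third, 226523_at, read 70.9 on LATS2, 112 on LATS2N and 104 on EV, a log2 ratio of -0.56 for LATS2 against EV. All 3 probe sets put LATS2 below both other arrays, but their size ran from 1.47-fold to 3.35-fold and only 1 of them passed the call, as the median over them, -0.88, did not. Agreement in 1 comparison is common: for LATS2 against EV every usable probe set was below 0 in 21.4% of the 6434 genes with at least 2 of them. The share for genes with 3 probe sets, or with LATS2 below both other arrays, was not computed. Ratios from different probe sets of 1 gene measure noise between probe sets alone. For LATS2 against EV their robust SD was 0.43 at dimmer signals between 50 and 100, where 2 of these 3 lay. Differences between cultures are left out of this SD, so a ratio that exceeds it, here or below, has passed no test. LATS2N against EV gave log2 ratios of -0.23, -0.42 and 0.11, which differ in sign. For that comparison the robust SD was 0.24 at dimmer signals from 200 to 500, where the first probe set lay. It was 0.34 from 100 to 200, where the other 2 lay. Only the second ratio exceeded the robust SD at its signal. A name that ends in _s_at marks a probe set that the maker designed to read several transcripts, as 2 of the TAGLN probe sets do.

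Among the calponins, which bind actin and tropomyosin, CNN3 was low on the LATS2 array and CNN2 was level. CNN3, the acidic calponin, read 604 on LATS2, 938 on LATS2N and 903 on EV with probe set 201445_at. Its other probe set, 228297_at, read 207 on LATS2, 458 on LATS2N and 407 on EV. In both probe sets LATS2 stood below the other 2 arrays, which lay close together. The log2 ratios for LATS2 against EV were -0.58 and -0.97, and for LATS2 against LATS2N -0.63 and -1.14. The robust SD between probe sets was 0.18 at dimmer signals from 500 to 2000 and 0.27 from 200 to 500, so both ratios against EV exceeded it. The dimmer CNN3 probe set fell just short of the call against EV, at 1.96-fold, and passed it against LATS2N, at 2.21-fold. The brightest probe set did not pass it in either comparison. For LATS2N against EV the CNN3 log2 ratios were 0.06 and 0.17. CNN2 read 2409 on LATS2, 2197 on LATS2N and 2318 on EV, and its log2 ratios against EV were 0.06 on LATS2 and -0.08 on LATS2N. Its only probe set, 201605_x_at, has an ending that marks probes that can cross-hybridise. CNN1, the smooth muscle calponin, was not above 8.99 on any array.

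AHNAK encodes a very large scaffold protein of the submembrane cytoskeleton that binds actin and annexin complexes. Its brightest probe set, 211986_at, read 905 on LATS2, 1058 on LATS2N and 1879.5 on EV. Both construct arrays lay below EV, by 2.08-fold for LATS2 and 1.78-fold for LATS2N. Among the 7402 genes with a brighter signal of at least 500, 0.365% were called lower on LATS2 and 0.23% higher. The construct arrays themselves differed by a log2 ratio of -0.23 for LATS2 against LATS2N. The other usable AHNAK probe sets were dim, and 1 of them differed in its order of arrays. Probe set 220016_at read 68.8 on LATS2, 156 on LATS2N and 74.96 on EV, so that LATS2N was high, 2.08-fold above EV. Probe set 238855_at read 9.83 on LATS2, 54.8 on LATS2N and 61.5 on EV, the same order of arrays as the brightest, with LATS2 under the floor. Its log2 ratio for LATS2 against EV was -0.28 at the floor, which is a bound, and -2.65 without the floor. The floored ratio is also the median over the 3 probe sets and is short of the call only as a bound. A further 2 AHNAK probe sets were below the floor on every array.

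ACTA2 encodes smooth muscle alpha-actin, the usual marker of smooth muscle and myofibroblasts. Its probe set 200974_at read 103 on LATS2, 100.02 on LATS2N and 46.7 on EV. EV was the low array and was under the floor, so ACTA2 was at least 2.04-fold higher on LATS2 and at least 1.98-fold higher on LATS2N. The LATS2 ratio lay just inside the call and the LATS2N ratio just outside it, and with ratios centred on the median gene the LATS2 ratio was 0.99 and no longer called. ACTA2 entered the LATS2 comparison only because its construct signal passed the floor. Among genes whose brighter signal was under 500, 1.9% of 5784 were called higher in LATS2 against EV. The other 2 ACTA2 probe sets were under the floor on every array. Across smooth muscle and fibroblast markers that are no member, none was called among the 9 of 17 that reached the floor for LATS2 against EV or the 10 that did for LATS2N, and 7 were under the floor on every array, including CNN1, COL1A2, COL3A1, PDGFRA, PDGFRB, FAP and POSTN. The summed signal of these 17 markers was 3922 on LATS2, 3792 on LATS2N and 3727 on EV. Most of it came from 3 genes with ratios of both signs. LUM, for the matrix proteoglycan lumican, read 1884 on LATS2, 1635 on LATS2N and 1519 on EV, and SMTN, for the actin-binding protein smoothelin, read 1069 on LATS2, 984 on LATS2N and 1395 on EV. COL1A1, the third, a chain of type I collagen, came nearest the call in this list, with 596 on LATS2, 607 on LATS2N and 325 on EV in 1 probe set, while its other 4 probe sets were under the floor on every array.

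The tropomyosins, which lie along actin filaments and control access of myosin, gave mixed ratios that were short of the call. TPM1 read 1025 on LATS2, 1206 on LATS2N and 1258 on EV with its brightest probe set. A second TPM1 probe set of similar signal, 210987_x_at, read 791 on LATS2, 992 on LATS2N and 1162 on EV. LATS2 was the low array in both, and all 4 usable TPM1 probe sets had LATS2 below EV, with log2 ratios from -0.56 to -0.03. For LATS2N against EV 2 of the 4 were above 0 and 2 below. TPM2, the beta chain, read 783 on LATS2, 961 on LATS2N and 594 on EV with probe set 204083_s_at, so that EV was low. Against EV its log2 ratio was 0.40 on LATS2 and 0.69 on LATS2N. Its other usable probe set, 212654_at, read 117 on LATS2, 83.3 on LATS2N and 107 on EV, a log2 ratio of -0.36 for LATS2N. The direction of TPM2 on LATS2N therefore depended on the probe set. TPM4 of the same family read 2495 on LATS2, 2824 on LATS2N and 2877 on EV.

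MYL9, the regulatory light chain of smooth muscle and non-muscle myosin II, was dim on every array. It read 71.7 on LATS2, 82.0 on LATS2N and 76.9 on EV, and the log2 ratios of -0.10 and 0.09 for LATS2 and LATS2N against EV were under the spread between probe sets at this signal. The related light chain genes were brighter. MYL12A read 2791 on LATS2, 3098 on LATS2N and 2160 on EV, and MYL12B read 8833 on LATS2, 11163 on LATS2N and 11413 on EV. MYL12A was thus lowest on EV and MYL12B lowest on LATS2, with neither called. ACTN1, which cross-links actin filaments at adhesions and stress fibres, had all 3 usable probe sets slightly higher on LATS2. Its brightest read 13984 on LATS2, 11629 on LATS2N and 12016 on EV, and the 3 log2 ratios for LATS2 against EV lay between 0.11 and 0.22. For LATS2N against EV they lay between -0.05 and 0.00. The robust SD between probe sets above a signal of 2000 was 0.12 for LATS2 against EV, which 2 of the 3 ACTN1 ratios exceeded. ACTN4, the other non-muscle alpha-actinin, read 12667 on LATS2, 11114 on LATS2N and 11977 on EV.

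SRF itself differed from EV by at most 1.23-fold on both construct arrays. Its brighter probe set, 202401_s_at, read 358 on LATS2, 262 on LATS2N and 324 on EV. LATS2N was the low array there, and LATS2 against LATS2N gave a log2 ratio of 0.45. Its second probe set, 202400_s_at, read 67.5 on LATS2, 57.2 on LATS2N and 57.6 on EV, a log2 ratio of 0.24 for LATS2 against LATS2N. Both SRF probe sets thus put LATS2 highest. The coactivator gene MRTFA read 275 on LATS2, 241 on LATS2N and 311 on EV, and MRTFB read 1056 on LATS2, 904 on LATS2N and 1050.1 on EV. RHOA, the small GTPase that drives actin polymerisation, read 17602 on LATS2, 18672 on LATS2N and 16529 on EV.

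**Figure D2:**
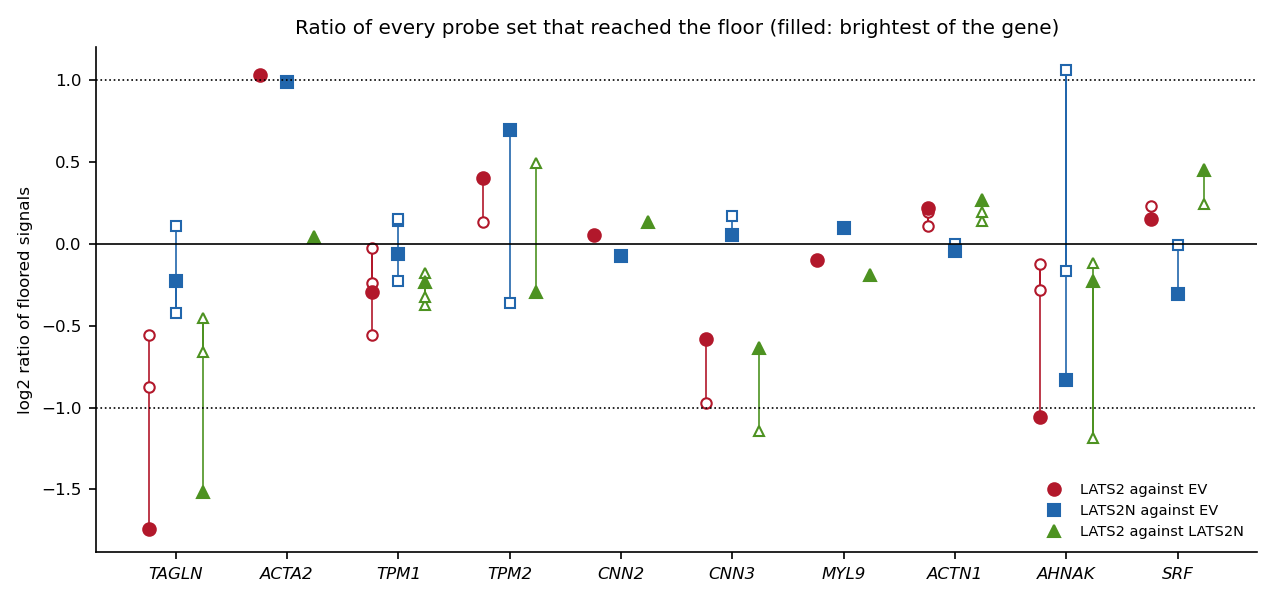
Log2 ratio of floored signals for each probe set that reached the floor, in 3 comparisons of single arrays, for each of the 10 genes. Filled symbols are the brightest probe set of a gene, open ones the others, and dotted lines mark a 2-fold difference. The TAGLN probe sets run from -1.74 to -0.56 for LATS2 against EV, and those of AHNAK run from -0.83 to 1.06 for LATS2N against EV.

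Of the 22 usable probe sets, 13 were below 0 and 9 above for LATS2 against EV. Of these, 2 were called lower, where 1.16% of 24686 probe sets were, and 1 was called higher, where 1.02% were. For LATS2N against EV the same numbers were below and above 0, none was called lower, where 0.803% of 24792 probe sets were, and 1 was called higher, where 0.899% were. LATS2 against LATS2N had 14 below and 8 above 0, with 3 called lower, where 1.05% of 24630 probe sets were, and none higher, where 0.747% were. These 3 were the brightest TAGLN probe set, the dimmer CNN3 one and the AHNAK probe set 220016_at. In every usable probe set of TAGLN, CNN3, TPM1 and AHNAK the LATS2 array lay below both LATS2N and EV, with 1 of the 3 AHNAK ratios a bound at the floor. In every usable probe set of ACTN1 and SRF the LATS2 array lay above both. Among genes with 1 usable probe set, CNN2 and ACTA2 also had LATS2 above both, and MYL9 had it below both. Among all genes with at least 2 usable probe sets, every one was below 0 in 21.4% and above 0 in 24.1% for LATS2 against EV, and in 21.4% and 24.6% for LATS2 against LATS2N. These shares are for each comparison alone, and the share for both at once was not computed.

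Other actin cytoskeleton and SRF target genes were described from a list of 44, of which 37 had a probe set with 1 symbol. On LATS2 against EV, 36 reached the floor, 17 were above 0 and 19 below, 1 was called higher and none lower, and the median log2 ratio was -0.01. The called gene was CCN1, a secreted matrix protein and target of both SRF and YAP, which read 136 on LATS2, 97.6 on LATS2N and 66.8 on EV. Its second probe set read 59.4 on LATS2, 46.9 on LATS2N and 58.1 on EV and did not follow. On LATS2N against EV, 34 reached the floor, none was called, and the median was 0.02. TAGLN2, the widely expressed transgelin, read 8641 on LATS2, 11147 on LATS2N and 10587 on EV, a log2 ratio of -0.29 for LATS2 against EV. Its second probe set gave -0.10. TAGLN3 had log2 ratios of -0.02 and 0.31 for LATS2 and LATS2N against EV, at signals of 22.3 on LATS2, 63.3 on LATS2N and 51.1 on EV. ACTB, cytoplasmic beta-actin, read 43827 on LATS2, 43428 on LATS2N and 40612 on EV, and ACTG2, the enteric smooth muscle actin, read 68.6 on LATS2, 36.6 on LATS2N and 72.3 on EV. MYL6, the essential light chain, had log2 ratios of -0.08 and 0.13 for LATS2 and LATS2N against EV, and AHNAK2 had 0.23 and 0.65 with EV under the floor. The adhesion genes VCL, for vinculin, and ZYX, for zyxin, had log2 ratios of -0.25 and -0.44 for LATS2 against EV. For LATS2N against EV they had 0.00 and -0.31. Other adhesion genes below 0 for LATS2 against EV were ITGA5 at -0.63, the lowest of the list, LPP at -0.47 and TLN1 at -0.42. For LATS2 against LATS2N, ITGA5 had -0.68. Above 0 for LATS2 against EV were ITGB1 at 0.16 and TGFB1I1 at 0.36.

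Few upstream regulators or immediate early genes were called, and with 0.963% of all genes called higher and 0.842% lower on LATS2, lists this short give few calls in any case. Of 21 SRF cofactors and actin regulators with a probe set, none was called on either construct against EV, and the medians were 0.01 for LATS2 and 0.00 for LATS2N. CFL2, which severs actin filaments, came nearest, with 372 on LATS2, 246 on LATS2N and 194 on EV, a log2 ratio of 0.94 for LATS2 against EV, and its other 2 probe sets gave 0.50 and 0.42. Of 11 immediate early genes, a class known for SRF-dependent transcription, none was called on LATS2 and 1, NR4A1, was called higher on LATS2N, with a median of -0.02 for LATS2 and 0.05 for LATS2N against EV. The NR4A1 probe sets disagreed, with log2 ratios from -1.51 to 1.41 for LATS2N against EV. FOS read 285 on LATS2, 236 on LATS2N and 163 on EV, and EGR1 read 3097 on LATS2, 3793 on LATS2N and 3257.5 on EV. Neither FOS nor EGR1 was called.

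**Figure D3:**
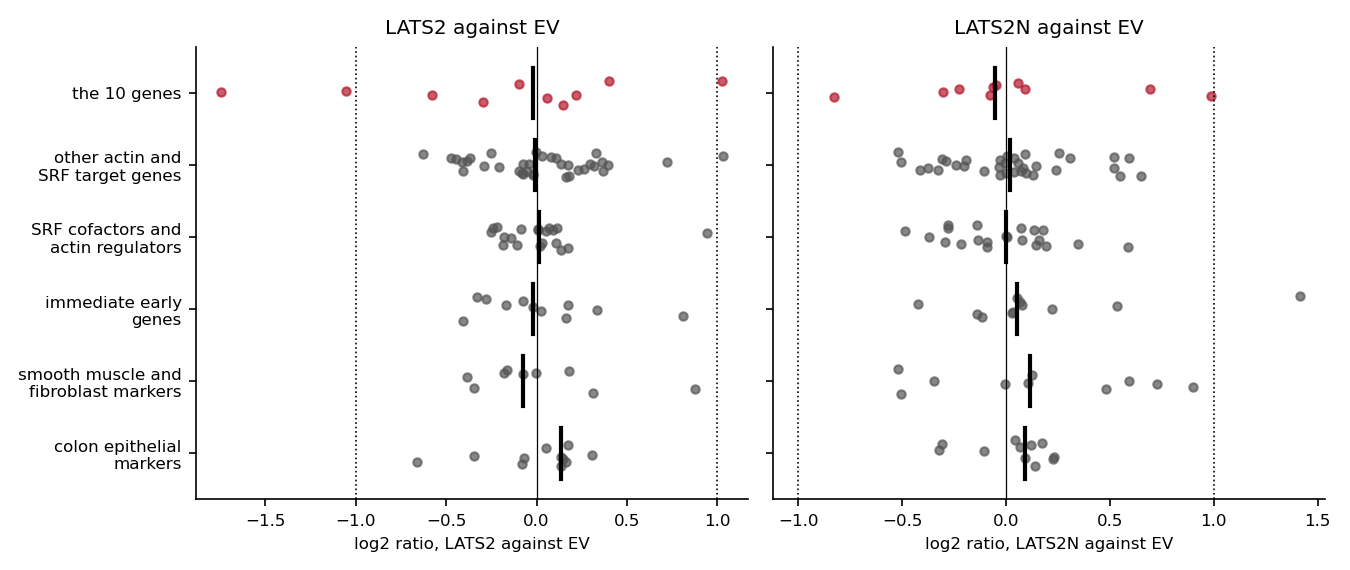
Log2 ratio against EV for each gene of 6 lists, left for LATS2 and right for LATS2N, each point the brightest probe set of a gene that reached the floor on 1 of the arrays. Black bars are list medians and dotted lines mark a 2-fold difference. The 10 genes spread from -1.74 to 1.03 on LATS2, and the bars of all 6 lists lie between -0.08 and 0.13 there.

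The genes whose pair of log2 ratios against EV was nearest to that of TAGLN were found among 7493 genes above the floor on all arrays and at 500 or more on 1 of them. The measure was the Euclidean distance over the LATS2 and LATS2N ratios, so it rests on 3 arrays and on a shared EV array. TAGLN entered with its brightest probe set alone, at -1.74 and -0.23. Its other probe sets lay at -0.88 and -0.42, and at -0.56 and 0.11, so the ranking is for that probe set. TAGLN itself, at 254 on its brightest array, was under the 500 asked of the other genes. The nearest was DDIT4, an inhibitor of mTORC1, at a distance of 0.27, with 3117 on LATS2, 11212 on LATS2N and 10901 on EV. ABAT, LGMN, ANKRD37, INSIG1, ADM, ALPP, PFKFB3, EGLN3 and VEGFA followed, at distances up to 0.64. On EV their signals ran from 523 for EGLN3 to 10901 for DDIT4.

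**Figure D4:**
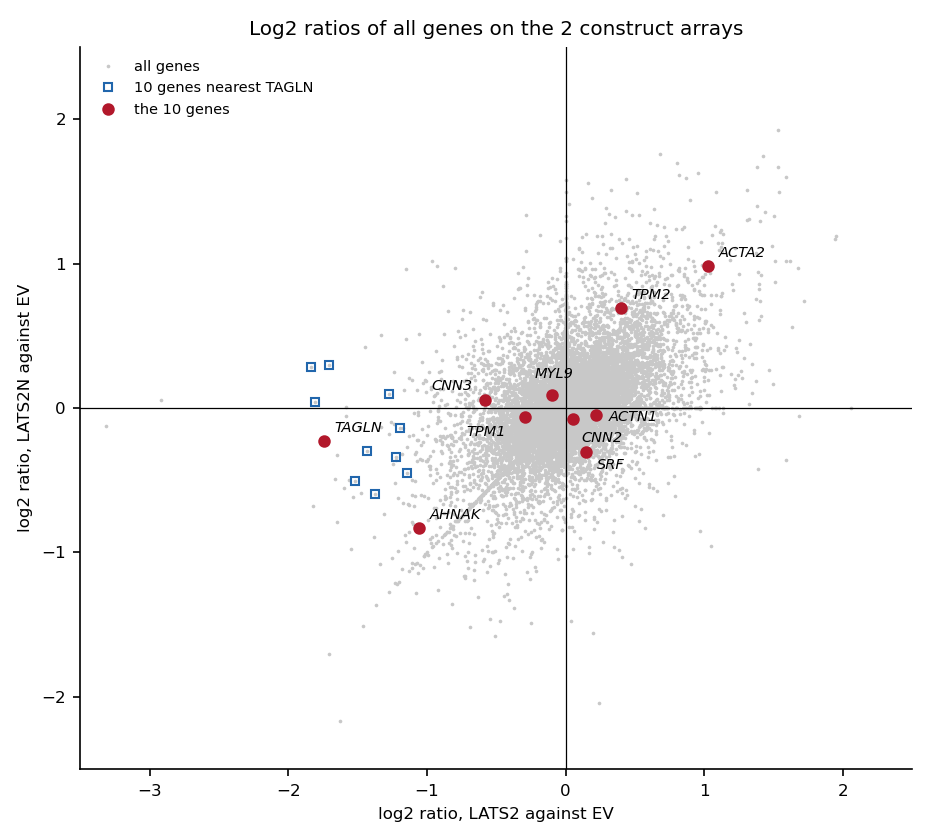
Log2 ratio of LATS2 against EV (x axis) and LATS2N against EV (y axis) for all genes that reached the floor (grey), the 10 genes (red) and the 10 genes nearest to TAGLN (blue squares). The axes share the EV array, and its part in the shape of the grey cloud was not tested. TAGLN lies at -1.74 and -0.23, AHNAK at -1.06 and -0.83, and ACTA2 at 1.03 and 0.99.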

How the data were processed

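Signals of 54675 probe sets on 3 arrays were analysed, 1 array per group. The authors deposited linear probe set intensities, for which the submitters' processing notes name MAS5. Version and settings are not given in the sources used here. A mean that trims 2% of values at each end was 500.1 on all 3 arrays, so each had been scaled to a common target. The platform annotation gave 1 symbol for 41091 probe sets and several for 1801. Symbols were updated by gene identifier to the RefSeq table of GRCh38.p14 for 41037. Ratios were computed with Python 3.11.15, numpy 2.4.6 and pandas 2.3.3. The brightest probe set by mean log2 signal stood for a gene. With 1 array per group there is no test, and precision is limited by the number of arrays. The spread between probe sets was the scaled median absolute deviation of differences between probe sets of 1 gene, which leaves out differences between cultures. The genes named were the 10 members, family partners, called list genes, fixed examples of each list and the 10 genes nearest to TAGLN. VCL, ZYX, ITGA5, LPP, TLN1, ITGB1, TGFB1I1, CFL2, COL1A1 and the other marker genes were named after their values were seen. Members and lists were chosen with earlier results of these data known. Alternatives were the floor, the scaling, a signal minimum, the probe set rule and the size of the call.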

Additional observations from a re-analysis of the deposited data

How the results depend on the processing

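With 1 array per group no replicate could be left out, and no paired analysis was possible because each group holds 1 array. Over 8 settings that give ratios, 193 of 207 member values stayed within the spread between probe sets, 14 moved by more and none of the called values changed sign. Among values short of the call, TAGLN on LATS2N against EV ran from -0.25 to 0.11, TPM1 from -0.08 to 0.15 and TPM2 from -0.36 to 0.71, while TPM2 on LATS2 against LATS2N ran from -0.33 to 0.49. Most of these values could not move. The other floors, no floor and the signal minimum kept the same probe sets, and centring took 1 constant from each comparison. The moves came with the 2 settings that change the probe set. With the median over probe sets 7 values moved and 23 stayed, and without probe sets of possible shared targets 7 moved and 14 stayed. The TAGLN log2 ratio for LATS2 against EV ran from -1.78 to -0.56 and that of AHNAK from -1.09 to -0.28, where -0.28 is a bound at the floor. With the median over probe sets, 0 of 10 members were called lower on LATS2 against EV and 0 of 10 against LATS2N. Of all genes, 79 of 13238 and 102 of 13234 were. Without probe sets of possible shared targets 7 members were tested, and 1 was called lower against EV and 0 against LATS2N. Of all genes, 97 of 10388 and 107 of 10386 were. Centred ratios moved ACTA2 out of the call on LATS2, with 0 members and 0 other actin genes called higher, and the median over probe sets also left 0 other actin genes higher. Of all genes, 105 of 13186 were called higher with centred ratios and 100 of 13238 with the median over probe sets. Counts of all genes also moved with the floor, given here as higher and lower. At a floor at the 25th percentile, all genes gave 814 and 949 calls among 17672 for LATS2 against EV. They gave 871 and 779 among 17719 for LATS2N against EV, and 744 and 979 among 17657 for LATS2 against LATS2N. The other actin and SRF genes gave 3 and 1 for LATS2 against EV, 2 higher for LATS2N against EV and 1 lower for LATS2 against LATS2N, and 1 member, ACTA2, became higher on LATS2N. With no floor the counts of all genes were 414 and 457 of 13186, 423 and 336 of 13245, and 318 and 457 of 13175 in the same order. The other actin and SRF genes again gave 3 and 1, 2 higher and 1 lower, and again 1 member was higher on LATS2N. At a floor at the 75th percentile, all genes gave 9 and 19 of 8191, 0 and 1 of 8143, and 0 and 20 of 8238. Of the 6 members tested, 0 were higher and 1 lower for LATS2 against EV, and 0 were lower against LATS2N. No other actin gene was higher for LATS2 against EV. With a signal of at least 500, all genes gave 17 and 27 of 7402, 3 and 2 of 7341, and 4 and 28 of 7426. Again 6 members were tested, with the same member and list counts of 0, 1, 0 and 0. With a 1.5-fold call, all genes gave 772 and 582 of 13186, 644 and 433 of 13245, and 563 and 668 of 13175. Members gave 2 higher and 1 lower on LATS2N against EV and 2 lower for LATS2 against LATS2N. The other actin and SRF genes gave 2 and 1, 2 higher, and 1 and 1. Stricter floors and signal minimums leave fewer genes tested, and TAGLN, ACTA2, MYL9 and SRF fall under them. For the other changes the cause was not tested.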
